A study of Mus musculus with 39 samples.

Results

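The comparison described here set the skin of old mice treated with ABT-737 against the skin of young mice, to ask what still differed from young skin after the drug. It was chosen by its labels, as the 3 skin libraries of ABT-737-treated mice (replicates 3, 4 and 5) and the 3 of young mice (replicates 1, 2 and 3), 6 of the 39 libraries of a study that also sampled kidney, liver and lung. All mice were C57BL/6 and lacked perforin (Prf1-/-), so no group had a working perforin gene and no wild-type mouse was among them. Young mice were 3 months old and untreated. ABT-737-treated mice were 20 months old and had been dosed at 25 mg/kg from 18 months of age onwards, on 2 consecutive days in each of 2 months. The labels name the treatment ABT-737 for replicate 3, ABT-738 for replicate 4 and ABT-739 for replicate 5, while the titles of all 3 name ABT. Another 3 skin libraries came from 20-month-old mice given vehicle on the same schedule (replicates 3, 4 and 5), and their values are placed beside the comparison. Age and treatment changed together between the compared groups, and the young mice received neither drug nor vehicle.

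Perforin is the pore-forming protein with which cytotoxic lymphocytes and natural killer cells open their target cells. ABT-737 is a small molecule that occupies the groove of BCL-2, BCL-XL and BCL-W, proteins that hold back apoptosis, and senescent cells depend on these proteins for survival. Mouse skin is a layered tissue of epidermis, dermis, fat and a thin sheet of skeletal muscle, set with hair follicles that pass through cycles of growth and rest. RNA from such a piece is a mixture of all of these, and in it fewer cells of a type and less RNA per cell cannot be told apart.

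Each library was a 3′ end count table, in which every gene has a whole number of reads. Totals ran from 1493411 to 2271560 counts in young skin, from 2246887 to 3569858 in vehicle-treated skin and from 2485280 to 3842808 in ABT-737-treated skin, so the young libraries were shallower than those of ABT-737-treated mice. Levels are given as CPM, counts relative to a library's total, scaled by the trimmed mean of M values, always in the order of the replicate numbers. Prf1 itself had 15, 19 and 44 counts in young skin, 43, 102 and 169 in vehicle-treated skin and 73, 41 and 63 in ABT-737-treated skin, so transcript from this locus was counted in all 9 libraries and gave no check of the genotype. The defining skin markers were present in every library, with Krt5 of the basal epidermis at 6200.1, 6232 and 4564 CPM in young skin and 4199, 2102 and 3768 CPM in ABT-737-treated skin. Low counts of genes of other organs were present, some of them uneven between libraries. The lung surfactant gene Sftpc had 3, 176 and 3 counts in the ABT-737-treated libraries and 0, 0 and 0 in the young ones, and albumin (Alb), a liver gene, had 235, 14 and 11 counts in the young libraries and 80, 6 and 4 in the ABT-737-treated ones. Umod, a kidney tubule gene, had 30, 6 and 15 counts in the ABT-737-treated libraries and 0 in the other 6.

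Old ABT-737-treated skin differed from young skin in 735 of the 14224 genes tested (5.17%), at a Benjamini-Hochberg adjusted p under 0.05 from the quasi-likelihood test of edgeR. Of these, 284 genes (2%) were higher and 451 (3.17%) were lower in ABT-737-treated skin, a split that became 373 and 394 when libraries were scaled by total counts alone. The higher genes included those of the outer epidermis, pigment cells and antibody chains, whereas the lower genes included output genes of the circadian clock, contractile and mitochondrial genes, and many pseudogenes. Log2 fold changes of called genes ran from 0.69 to 6.39 among higher genes (median 1.49) and from -4.48 to -0.65 among lower genes (median -1.66), beside a median of 0.10 over all genes tested. Wherever a gene is followed by a value ± its error and no unit, the value is the log2 fold change of ABT-737-treated over young skin and the error its SE. In all 735 genes the 3 ABT-737-treated libraries lay wholly on one side of the 3 young ones, which was also true of 18.7% of all tested genes above and 17.7% below young skin.

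The number of calls depended strongly on single libraries. Without young replicate 1 there were 0 higher and 7 lower genes, without young replicate 2 there were 2 and 18, and without young replicate 3 there were 13 and 62. Among the treated libraries, omitting ABT-737 replicate 4 left 16 and 46, omitting replicate 5 left 1 and 2, and omitting replicate 3 gave 1478 and 1397. Vehicle-treated libraries entered the fit through the shared spread, and without vehicle replicate 3 there were 142 higher and 343 lower genes, and without vehicle replicate 5 there were 431 and 646. Every one of the 735 genes kept its direction in each of these fits that tested it. Dbp and the predicted gene Gm13870 were the 2 genes called in all 9 fits that left out a library, and Klk10, Nr1d1, Per3, Atp5k-ps2, Gm10039 and Gm15393 were called in 8 of the 9.

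**Figure D1:**
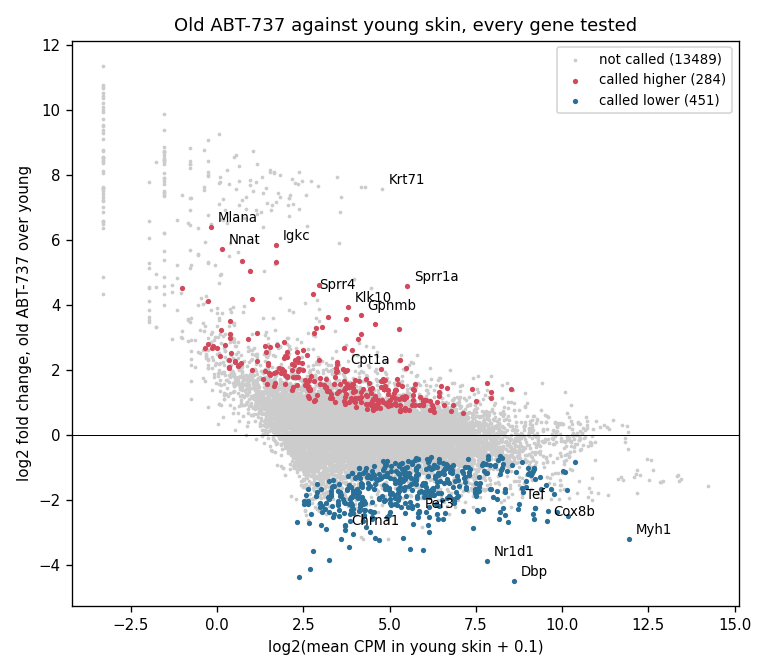
Log2 fold change of old ABT-737-treated over young skin (vertical axis) against log2 of the mean CPM in young skin plus 0.1 (horizontal axis), with 1 point for each of the 14224 genes tested. Red points are the 284 genes called higher and blue points the 451 called lower. Grey points with fold changes above 6 on the log2 scale include hair keratin genes such as Krt71, which were not called.

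ABT-737-treated and vehicle-treated old skin were compared directly in the same fit, and 0 of 14224 genes differed at an adjusted p under 0.05 by edgeR's quasi-likelihood test (0% called), with 1134 genes at an unadjusted p under 0.05. Against young skin, the vehicle-treated libraries of the same fit gave 831 higher genes (5.84%) and 761 lower genes (5.35%), 11.2% of those tested together. Between the 2 old groups DESeq2 called 59 genes, 53 lower and 6 higher in ABT-737-treated skin, and edgeR without the filter on low counts called 32. These 2 sets shared 25 genes. Among the shared genes, named here after their values were seen, were the chemokine Ccl5, the interferon-induced genes Isg15, Rsad2 and Bst2, the macrophage gene Aif1 and haemoglobin genes, all lower in ABT-737-treated skin. The kidney gene Umod and the imprinted gene Nnat were called higher in the unfiltered fit. With the replicate number as a block over the 6 old libraries, 0 genes were called.

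The largest decrease of any called gene was that of Dbp, an output gene of the circadian clock. The clock is a feedback loop in which ARNTL and CLOCK switch on the Per and Cry genes, whose proteins switch ARNTL and CLOCK off, while NR1D1 represses Arntl and the output factors DBP, TEF and HLF carry the rhythm to other genes. Most of these transcripts rise and fall over the day in many tissues, and the hour at which each mouse was killed is not given in the sources used here. Of 18 clock genes tested, 4 were called lower (Dbp, Nr1d1, Per3 and Tef) and 0 higher, against 3.17% of all genes called lower, and the median log2 fold change of the 18 was -0.99. In 11 of the 18 genes, beside 17.7% of all genes, all ABT-737-treated libraries lay below all young ones.

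The 250 bases before the RefSeq start of these 4 called genes are printed to show which of them carry the binding motifs of the clock factors next to their start, with the E-box (CACGTG, bound by ARNTL with CLOCK) and the D-box (TTANGTAA, bound by DBP and TEF) in capitals, each searched on both strands (GRCm38.p6, 5′ to 3′ on the gene's strand).
Dbp, chr7:45704997-45705246, plus strand: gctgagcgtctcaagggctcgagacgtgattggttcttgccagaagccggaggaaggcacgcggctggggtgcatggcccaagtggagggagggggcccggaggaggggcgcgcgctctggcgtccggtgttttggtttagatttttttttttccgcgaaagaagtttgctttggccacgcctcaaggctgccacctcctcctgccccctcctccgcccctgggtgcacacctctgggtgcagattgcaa
Nr1d1, chr11:98775378-98775627, minus strand: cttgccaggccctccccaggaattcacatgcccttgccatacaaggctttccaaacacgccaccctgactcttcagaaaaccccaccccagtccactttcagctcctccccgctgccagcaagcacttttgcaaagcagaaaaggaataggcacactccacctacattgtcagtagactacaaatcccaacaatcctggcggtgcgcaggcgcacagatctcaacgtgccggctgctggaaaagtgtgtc
Per3, chr4:151044666-151044915, minus strand: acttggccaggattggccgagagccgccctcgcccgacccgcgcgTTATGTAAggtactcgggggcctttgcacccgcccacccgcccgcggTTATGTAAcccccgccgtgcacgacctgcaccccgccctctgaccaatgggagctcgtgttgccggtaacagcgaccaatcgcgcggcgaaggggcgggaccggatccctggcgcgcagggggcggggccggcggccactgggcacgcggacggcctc
Tef, chr15:81811164-81811413, plus strand: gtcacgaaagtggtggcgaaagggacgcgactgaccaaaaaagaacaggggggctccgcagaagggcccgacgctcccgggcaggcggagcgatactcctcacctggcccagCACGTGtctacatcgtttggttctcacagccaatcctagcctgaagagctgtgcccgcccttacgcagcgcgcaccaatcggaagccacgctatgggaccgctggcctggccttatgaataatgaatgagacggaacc
Tef held 1 E-box and Per3 held 2 D-boxes, and the windows of Dbp and Nr1d1 held neither. An E-box was present in 6.02% and a D-box in 2.06% of the 32851 promoter windows of the same length in the reference. Of 16 clock genes with a window, 5 held an E-box in at least 1 of their windows (Bhlhe41, Ciart, Cry1, Per1 and Tef) and 1 held a D-box (Per3). These are counts of genes, which can have several windows, so they are not alike with the shares of single windows. A match of letters is a description of the window and not a measured site, and the RefSeq starts of Dbp, Nr1d1 and Per3 are not the starts of the deposited gene models.

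Dbp (chr7:45705088-45710203 in the deposited mm10 coordinates), the output factor that binds D-boxes, had 406, 398 and 359 CPM in young skin and 23.9, 9.01 and 18.6 CPM in ABT-737-treated skin. All ABT-737-treated libraries lay far below all young ones, at 388 ± 25 CPM in young skin and 17.2 ± 7.53 CPM in ABT-737-treated skin (mean ± SD, n = 3 each). The difference was -4.48 ± 0.36 on the log2 scale (adjusted p = 0.00238 by edgeR). Dbp overlaps Car11 on its own strand and Sphk2 on the other, and reads in the overlaps are uncertain. In vehicle-treated skin Dbp stood at 18, 13.9 and 22.3 CPM, and its log2 fold change over young skin was -4.42 ± 0.36. The direct difference between the 2 old groups was -0.07 ± 0.33 on the log2 scale (adjusted p = 0.984 by edgeR).

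Nr1d1 (chr11:98767347-98770426), the haem-binding repressor of Arntl, had 234, 223 and 224 CPM in young skin and 23.4, 9.01 and 12.8 CPM in ABT-737-treated skin (log2 fold change -3.90 ± 0.40 (SE), adjusted p = 0.00638 by edgeR). Per3 (chr4:151011437-151031497), a period gene, had 62.9, 47.8 and 57.8 CPM in young and 11.4, 8.62 and 11.6 CPM in ABT-737-treated skin (log2 fold change -2.40 ± 0.24 (SE), adjusted p = 0.00638 by edgeR). Tef (chr15:81811414-81828698), a relative of Dbp, had 429.8, 448 and 427 CPM in young and 166, 62.3 and 71.6 CPM in ABT-737-treated skin (log2 fold change -2.12 ± 0.39 (SE), adjusted p = 0.0266 by edgeR). In these 3 genes the young libraries differed little among themselves, and the ABT-737-treated libraries were all lower without overlap. The vehicle-treated libraries were also low, with 22, 34.9 and 15.4 CPM for Nr1d1, 7.47, 5.69 and 4.69 CPM for Per3 and 109, 135 and 70.9 CPM for Tef.

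Arntl, of the activating arm of the loop, and Cry1, of the repressing arm, had higher values than in young skin and missed the threshold. Arntl had 2.17, 4.03 and 9.55 CPM in young and 30.9, 20.4 and 18.6 CPM in ABT-737-treated skin (log2 fold change 2.07 ± 0.51 (SE), adjusted p = 0.0509 by edgeR). Cry1 had 10.1, 11.5 and 11.4 CPM in young and 30.4, 20.8 and 20.4 CPM in ABT-737-treated skin (1.11 ± 0.28, adjusted p = 0.0536 by edgeR). In both genes the ABT-737-treated libraries lay above the young ones without overlap. Per1, at 151, 146 and 141 CPM in young and 50.9, 27.8 and 58.2 CPM in ABT-737-treated skin, lay below young skin without overlap and did not pass either (adjusted p = 0.0785 by edgeR). The number of clock genes called lower was 1 when ABT-737 replicate 5 was left out and 3 when ABT-737 replicate 4 or any one of the young replicates was. It was 6 without vehicle replicate 4, beside 451 of all 14644 genes, and 7 without ABT-737 replicate 3, beside 1397 of all 14640.

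**Figure D2:**
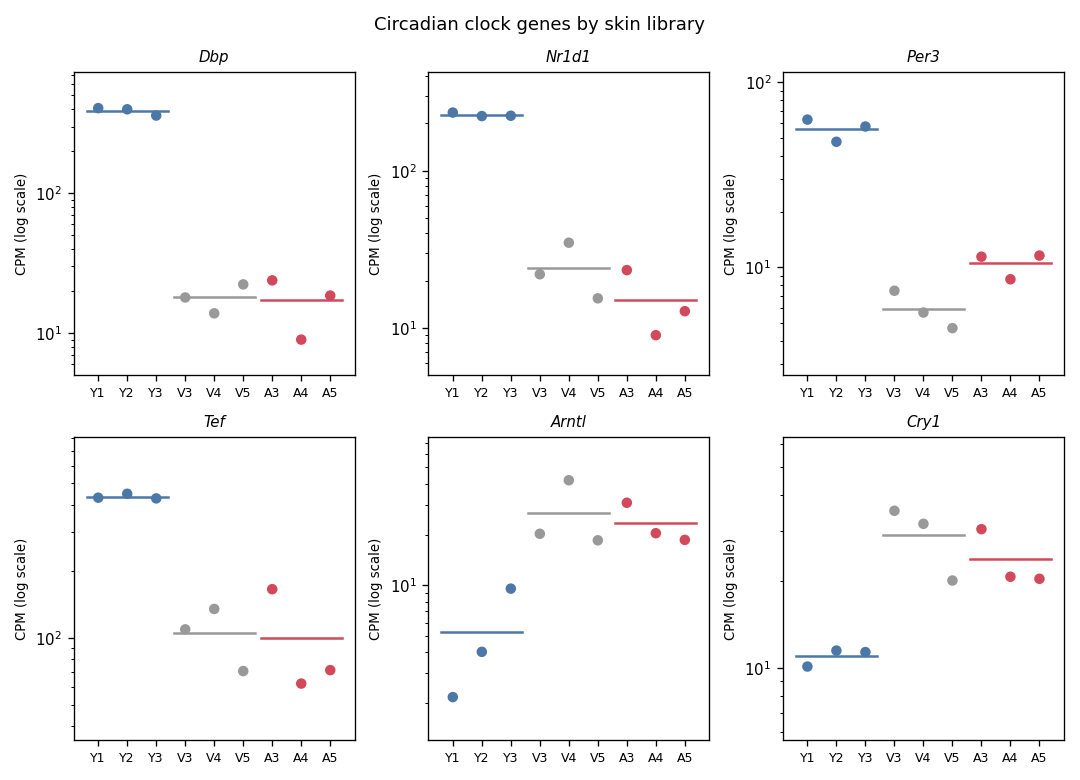
CPM (log axis) of 6 circadian clock genes in the 9 skin libraries, with young replicates Y1 to Y3 in blue, vehicle-treated replicates V3 to V5 in grey and ABT-737-treated replicates A3 to A5 in red, and a bar at each group mean. Dbp, Nr1d1, Per3 and Tef lie lower in all old libraries than in all young ones, and Arntl and Cry1 lie higher.

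Some skeletal muscle genes were lower in ABT-737-treated skin, and replicate 3 had the summed muscle level nearest to young skin. Of 39 muscle genes tested, 4 were called lower (Myh1, Mylk2, Mybpc1 and Cox8b), beside 3.17% of all genes, and 0 higher, 38 had a negative log2 fold change, and their median was -1.30 beside 0.10 over all genes. Their summed level was 172683, 118843 and 118462 CPM in young skin and 99465, 33276 and 30068 CPM in ABT-737-treated skin, so the groups did not overlap. Vehicle-treated skin had 66503, 82397 and 19579 CPM. There 4 of the 39 genes were called lower and 1 higher than in young skin, beside 5.35% and 5.84% of all genes. Myh1, the myosin heavy chain of fast fibres, had 5445, 3361 and 2912 CPM in young and 617, 196 and 456 CPM in ABT-737-treated skin (log2 fold change -3.21 ± 0.57 (SE), adjusted p = 0.0242 by edgeR). Myh1 overlaps the antisense gene Myhas, and the strand used in counting is not given, so their reads cannot be told apart. Mybpc1, a myosin-binding protein of slow fibres, had a log2 fold change of -2.28 ± 0.45 (adjusted p = 0.0304), and Mylk2, the myosin light chain kinase of skeletal muscle, had -2.38 ± 0.59 (adjusted p = 0.0498). Acta1, skeletal actin, had 24234, 17325 and 16390.2 CPM in young and 10326, 4813 and 4302 CPM in ABT-737-treated skin and did not pass the test (adjusted p = 0.0793 by edgeR). The called genes also included Chrna1, a subunit of the acetylcholine receptor at the nerve-muscle junction, at 16.6, 8.63 and 13.2 CPM in young and 1.82, 1.18 and 1.83 CPM in ABT-737-treated skin (-2.93 ± 0.38, adjusted p = 0.0119 by edgeR). H19, an imprinted non-coding RNA that stays on in muscle, was also called lower, at 748, 506 and 543 CPM in young and 204, 75.2 and 99.7 CPM in ABT-737-treated skin (-2.25 ± 0.41, adjusted p = 0.0266 by edgeR). The muscle list had 0 calls without any one of the young replicates or without ABT-737 replicate 4 or 5. It had 8 lower without vehicle replicate 5, beside 646 of all 14583 genes. When ABT-737 replicate 3 was left out it had 29 lower, beside 1397 of all 14640 genes.

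Genes of oxidative phosphorylation, the chain of complexes with which mitochondria make ATP, were partly lower as well. Of 77 tested, 13 were called lower, beside 3.17% of all genes, and 0 higher, and their median log2 fold change was -0.62. In vehicle-treated skin 20 of the 77 were called lower than in young skin, beside 5.35% of all genes, with a median of -0.77. The called genes were Ndufa1, Ndufa2, Ndufa3, Ndufa4, Ndufb8 and Ndufs5, most of them subunits of complex I, Uqcrc1 of complex III, Cox5a, Cox6c, Cox7c and Cox8b of complex IV, and Atp5j and Atp5k of the ATP synthase. Cox8b, the form of its subunit found in heart and skeletal muscle and also counted in the muscle list, fell most, from 965, 673 and 621 CPM to 226, 58.8 and 74.1 CPM (-2.65 ± 0.52, adjusted p = 0.03 by edgeR). Cox7c had 117, 105 and 101 CPM in young and 31.9, 25.1 and 28 CPM in ABT-737-treated skin (-1.92 ± 0.25, adjusted p = 0.0121 by edgeR), and Atp5k had 324, 265 and 243 CPM and 98.9, 74.4 and 77.4 CPM (-1.73 ± 0.20, adjusted p = 0.00745 by edgeR). In all 3 genes the young libraries were the highest of the groups without overlap. The summed level of the list was 39426, 28833 and 30048 CPM in young and 24527, 18919 and 18029.6 CPM in ABT-737-treated skin. As in the muscle list, young replicate 1 and ABT-737 replicate 3 were the highest of their groups, and the part of muscle in this result was not tested. The list had 0 calls without young replicate 1 or ABT-737 replicate 5, and 2 to 4 without young replicate 2 or 3 or ABT-737 replicate 4. When ABT-737 replicate 3 was left out it had 36 lower, beside 1397 of all 14640 genes.

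Among the cytosolic ribosomal protein genes, 6 of 76 were called lower, beside 3.17% of all genes, and 0 higher. Their median of -0.21 lay near that of all genes. Among the called ones were Rpl36 and Rps3a1. Rps3a1 had 119, 138 and 118 CPM in young and 41.5, 63.8 and 49.4 CPM in ABT-737-treated skin (-1.27 ± 0.19, adjusted p = 0.0158 by edgeR), whereas Rplp1 had 3545, 4049.9 and 3902 CPM and 4005, 4077 and 4048 CPM and did not pass (adjusted p = 0.811). Without any one of the young replicates or ABT-737 replicate 5 the list had 0 calls, and without ABT-737 replicate 4 it had 1. Ribosomal protein and mitochondrial genes have many processed pseudogenes, retrotransposed copies of their transcripts, and reads of near-identical copies cannot be assigned with certainty.

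Pseudogenes made up most of the genes called lower. By GENCODE vM21, 236 of the 451 lower genes (52.3%) were pseudogenes and 185 (41.0%) were protein-coding, whereas 1 of the 284 higher genes (0.352%) was a pseudogene and 276 (97.2%) were protein-coding. Pseudogenes were 10.9% of all genes tested, and the median log2 fold change of the 1544 tested was -0.57 against 0.18 for the 12005 protein-coding ones. Their share of all counts was 12.8% to 13.9% in young skin, 11.1% to 12.0% in vehicle-treated skin and 10.9% to 12.0% in ABT-737-treated skin, so each old library lay below each young one. Gm13870 had 55.7, 46 and 41.8 CPM in young and 5.19, 3.92 and 3.35 CPM in ABT-737-treated skin (-3.50 ± 0.27, adjusted p = 0.00238 by edgeR), AC159475.1 had -3.16 ± 0.58, and Atp5k-ps2, a copy of Atp5k, had 94.1, 80 and 69.6 CPM and 17.6, 20.4 and 18 CPM (-2.12 ± 0.20, adjusted p = 0.00624 by edgeR). When the 11993 protein-coding genes that passed the filter were fitted alone, an alternative chosen after the data were seen, 36 genes were called higher and 101 lower, all of them among the 735.

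Other genes called lower were outside these groups. Slc17a9, a vesicular nucleotide transporter, had 78.9, 58.1 and 48.7 CPM in young and 8.3, 3.13 and 3.96 CPM in ABT-737-treated skin (-3.54 ± 0.46, adjusted p = 0.0118 by edgeR). Crebrf, a regulator of the CREB3 stress factor, had 24.6, 22.4 and 16.8 CPM and 3.37, 1.96 and 2.44 CPM (-2.99 ± 0.38, adjusted p = 0.0114 by edgeR). Kcnc1, a voltage-gated potassium channel, had -3.23 ± 0.67 on the log2 scale and Myh13, the myosin of extraocular muscle, had -3.45 ± 0.84. Pdgfb, a growth factor that recruits pericytes, had 39.1, 38.6 and 33.2 CPM in young and 15.8, 11 and 14.3 CPM in ABT-737-treated skin (-1.42 ± 0.25, adjusted p = 0.0253 by edgeR). The records n-R5s94 and Mir1963 had -3.86 ± 0.78 and -2.99 ± 0.59 on the log2 scale, and Mir1963 lies within the muscle gene Ryr1.

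Some genes of the outer epidermis were called higher in ABT-737-treated skin. The cornified envelope is the cross-linked protein shell that terminally differentiating keratinocytes build under their membrane, and kallikrein proteases help to shed the cells that carry it. Of 59 envelope and barrier genes tested, 5 were called higher, against 2% of all genes, and 0 lower, and their median log2 fold change was 0.86. For vehicle-treated over young skin 20 of the 59 were called higher, beside 5.84% of all genes, with a median of 1.63. The summed level of the list was 8241, 15518 and 17842 CPM in young and 20813, 16397 and 20379 CPM in ABT-737-treated skin, with overlap. Klk10, a kallikrein-related peptidase, had 10.9, 18.4 and 12.3 CPM in young skin and 208, 130.0 and 309 CPM in ABT-737-treated skin (log2 fold change 3.95 ± 0.41 (SE), adjusted p = 0.00638 by edgeR). Sprr4 and Sprr1a encode small proline-rich envelope proteins. Sprr4 had 4.34, 6.33 and 9.55 CPM in young and 79.1, 76.8 and 270.0 CPM in ABT-737-treated skin (4.35 ± 0.66, adjusted p = 0.0158 by edgeR), and Sprr1a had 31.8, 48.9 and 55.5 CPM and 188, 1451 and 1625 CPM (4.58 ± 0.88, adjusted p = 0.0292 by edgeR). Involucrin (Ivl), an early scaffold of the envelope, had 22.4, 39.7 and 48.2 CPM in young and 95, 127 and 149 CPM in ABT-737-treated skin (1.73 ± 0.36, adjusted p = 0.0319 by edgeR). All 3 ABT-737-treated libraries were above all young ones in each of these genes, and in Sprr1a replicate 3 lay nearest to young skin. Loricrin (Lor), the major envelope protein, had 1263, 3025 and 3606 CPM in young and 3670.2, 2609 and 2766 CPM in ABT-737-treated skin and did not pass (adjusted p = 0.745 by edgeR). The list had 0 calls without young replicate 1, and 1 or 2 without young replicate 2 or 3 or ABT-737 replicate 4 or 5. It had 11 without vehicle replicate 5, a fit that called 431 higher and 646 lower of all 14583 genes. When ABT-737 replicate 3 was left out it had 11 higher and 1 lower, beside 1478 and 1397 of all 14640 genes.

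**Figure D3:**
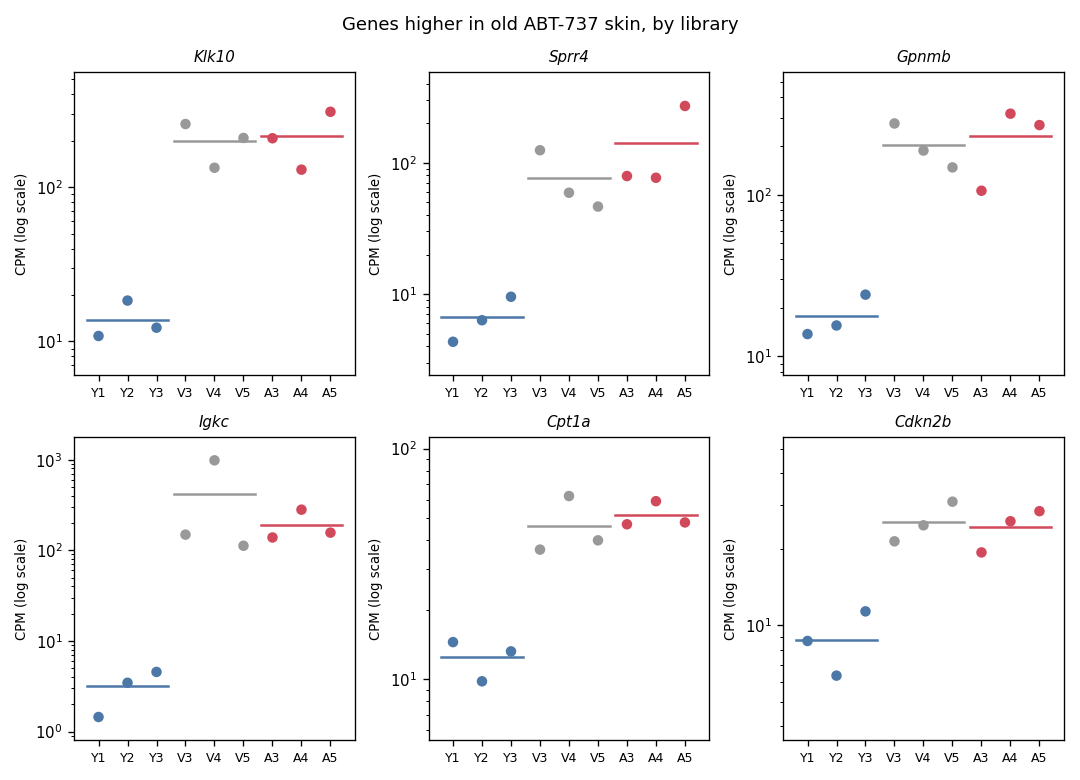
CPM (log axis) of 6 genes called higher in old ABT-737-treated skin, in young replicates Y1 to Y3 (blue), vehicle-treated replicates V3 to V5 (grey) and ABT-737-treated replicates A3 to A5 (red), with a bar at each group mean. All ABT-737-treated libraries lie above all young ones in each panel, and the vehicle-treated libraries lie above the young ones as well.

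Hair shaft and inner root sheath genes were widely spread among ABT-737-treated mice. These keratins and trichohyalin are made by the matrix and sheaths of a follicle in its growth phase and are nearly absent in its resting phase. Their summed level was 576, 132 and 154 CPM in young skin, 21812, 221 and 1850.3 CPM in vehicle-treated skin and 206, 55266 and 54438 CPM in ABT-737-treated skin. ABT-737 replicate 3 thus lay within the range of young skin, and replicates 4 and 5 lay far above every young library. Of 45 genes tested, 0 were called, and all had positive log2 fold changes. Their median was 7.72, which became 7.59 with the 5 genes at 0 in all young libraries set against 3 counts over the group. Genes low in young skin can pass the filter through old libraries alone. With at least 10 counts required in every library 5 were tested, with a median of 4.57. With no filter beyond 1 count 46 were, with a median of 7.71. Krt71, an inner root sheath keratin, had 74.5, 1.73 and 6.37 CPM in young and 10.6, 8723 and 6874 CPM in ABT-737-treated skin (adjusted p = 0.098 by edgeR), and trichohyalin (Tchh) had 43.4, 5.18 and 10 CPM and 19.7, 5927 and 5634 CPM (adjusted p = 0.0766). Without ABT-737 replicate 3, 45 of 46 such genes were called higher, beside 1478 of all 14640 genes. On all libraries DESeq2 called 37 of 46, beside 910 higher and 1033 lower of all 28961 genes. Without the filter on low counts edgeR called 44 of 46, beside 973 higher of all 29019 genes.

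The same replicate stood nearest to young skin in most called genes, though among the lower genes its share was close to that of all tested genes. ABT-737 replicate 3 was the lowest of the 3 treated libraries in 198 of the 284 higher genes (69.7%), beside 54.0% of all tested genes with a positive fold change, and the highest in 268 of the 451 lower genes (59.4%), beside 57.2% of those with a negative one. Among 45 regulators of the hair cycle and follicle stem cells, Sfrp1 (1.25 ± 0.30), an inhibitor of WNT signals, and Rspo1 (1.67 ± 0.36), an enhancer of them, were called higher, beside 2% of all genes, and 0 were called lower. The part of hair growth state in the other results was not tested.

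Pigment cell genes were higher, 6 of 19 tested being called higher, beside 2% of all genes, and 0 lower. Their median log2 fold change was 4.52. It became 3.78 with the 5 genes at 0 in all young libraries set against 3 counts over the group. For vehicle-treated over young skin 6 of the 19 were called higher as well, beside 5.84% of all genes, with a median of 3.50. Members low in young skin can pass the filter through old libraries alone. With at least 10 counts required in every library 6 were tested, with a median of 0.89. Of these 3 were called higher, beside 322 of all 10234 genes. In a fit of only the 6 compared libraries 9 passed the filter, with a median of 1.26. Of these 5 were called higher, beside 392 of all 13301 genes. Melanocytes of the follicle make pigment while the hair grows, and Kit and Ednrb are the receptors that guide and maintain them. Mlana, a melanosome protein, had 1.45, 0 and 0.91 CPM in young and 13.8, 129 and 60 CPM in ABT-737-treated skin (6.39 ± 1.32, adjusted p = 0.0323 by edgeR). Gpnmb, a glycoprotein of melanosomes and of macrophages, had 13.7, 15.5 and 24.1 CPM in young and 106, 317 and 269.7 CPM in ABT-737-treated skin (3.68 ± 0.46, adjusted p = 0.0114 by edgeR). Ednrb had 2.89, 2.3 and 6.82 CPM in young and 10.1, 32.9 and 31.1 CPM in ABT-737-treated skin (2.54 ± 0.54, adjusted p = 0.0341 by edgeR). Kit, which mast cells also express, was called on 2 counts in all of young skin and 84 in ABT-737-treated skin, a ratio of 23.1 after scaling (exact 95% interval 6.19 to 194, counting error only). The others called were Rab38 (1.27 ± 0.30) and Myo5a (1.57 ± 0.25), which move and position melanosomes. In the pigment enzyme Dct and the melanosome fibril gene Pmel, replicate 3 lay nearest to young skin as in the hair genes, and neither passed the test. Dct had 0, 0.575 and 3.64 CPM in young and 3.37, 169 and 78.9 CPM in ABT-737-treated skin (adjusted p = 0.0694 by edgeR) and Pmel had 0, 1.15 and 1.82 CPM and 1.04, 244 and 107 CPM (adjusted p = 0.086 by edgeR). The summed level of the list was 84.7, 102 and 116 CPM in young and 238, 1313 and 800.0 CPM in ABT-737-treated skin, without overlap. The list had 0 calls without young replicate 1, young replicate 2 or ABT-737 replicate 5, and 1 without young replicate 3 or ABT-737 replicate 4. It had 16 when ABT-737 replicate 3 was left out, a fit that called 1478 of all 14640 genes higher.

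**Figure D4:**
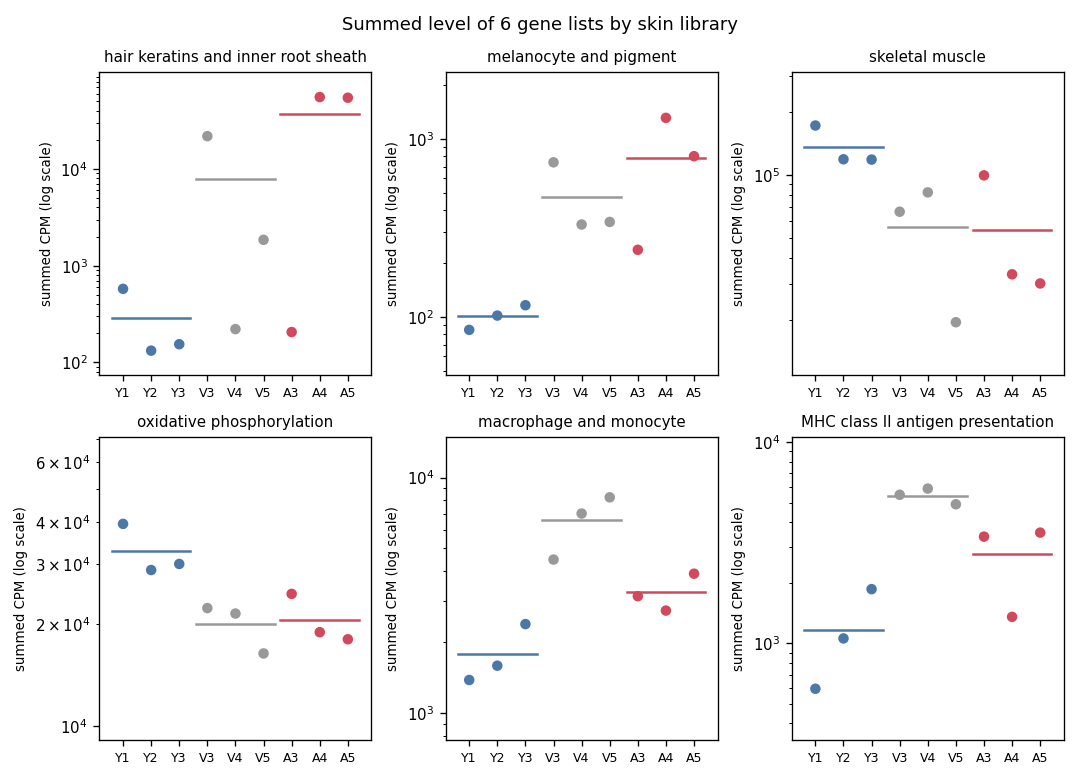
Summed CPM (log axis) of 6 gene lists in young replicates Y1 to Y3 (blue), vehicle-treated replicates V3 to V5 (grey) and ABT-737-treated replicates A3 to A5 (red), with a bar at each group mean. ABT-737 replicate 3 has a hair keratin level like young skin and the highest muscle level of the 3 treated libraries.

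Cell cycle genes had a median log2 fold change of 1.29. Of 59 tested, 4 were called higher (Nusap1, Prc1, Ttk and H2afz), beside 2% of all genes, and 0 lower. Members low in young skin can pass the filter through old libraries alone. When every library had to have at least 10 counts, 29 were tested, with a smaller median of 0.59. Of these 1 was called higher, beside 322 of all 10234 genes. In a fit of only the 6 compared libraries 48 passed the filter, with a median of 0.998. Of these 6 were called higher, beside 392 of all 13301 genes. Nusap1, a spindle protein, had 0.724, 0.575 and 2.27 CPM in young and 6.23, 25.9 and 14.3 CPM in ABT-737-treated skin (3.52 ± 0.77, adjusted p = 0.0373 by edgeR), with replicate 3 lowest of the treated libraries. The summed level of the list was 1239, 1371 and 1277 CPM in young and 939, 2668 and 2041 CPM in ABT-737-treated skin, so replicate 3 lay below every young library and the others above. Without ABT-737 replicate 3, 30 of 61 were called higher, beside 1478 of all 14640 genes. Without ABT-737 replicate 4 or 5 or any one of the young replicates 0 were. Without vehicle replicate 3 the count was 1, and among protein-coding genes alone it was 0.

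Genes of antibody chains were among those raised most. Igkc, the constant part of the kappa light chain, had 1.45, 3.45 and 4.55 CPM in young and 139, 281 and 157 CPM in ABT-737-treated skin (log2 fold change 5.85 ± 0.97 (SE), adjusted p = 0.0186 by edgeR), and vehicle-treated skin had 149, 984 and 112 CPM. Ighm, the constant part of the IgM heavy chain, had 11.6, 10.4 and 17.7 CPM in young and 103, 243 and 129.5 CPM in ABT-737-treated skin (3.56 ± 0.75, adjusted p = 0.0342 by edgeR). The old libraries lay above all young ones for both chains. Of 14 B cell and plasma cell genes tested, 3 were called higher, beside 2% of all genes. The third was Prdm1 at 2.30 ± 0.39 on the log2 scale, a factor of plasma cells that also marks cells of the sebaceous gland and epidermis. The surface gene Sdc1 had 334, 366 and 335 CPM in young and 381, 779 and 683 CPM in ABT-737-treated skin (adjusted p = 0.097 by edgeR). The list had 0 calls without any one of the young replicates or without ABT-737 replicate 4 or 5. It had 5 when ABT-737 replicate 3 was left out, a fit that called 1478 of all 14640 genes higher.

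Macrophage and monocyte genes lay above young skin in sign and rarely passed the test. Of 39 tested, 37 had positive log2 fold changes, with a median of 1.24. Of the 39, 2 were called higher, Gpnmb and Cd209a, beside 2% of all genes. Cd209a, a lectin of dermal dendritic cells and macrophages, had 1.45, 1.73 and 3.18 CPM in young and 28.3, 9.4 and 21.6 CPM in ABT-737-treated skin (3.14 ± 0.65, adjusted p = 0.0325 by edgeR). Lyz2, a lysozyme of macrophages, had 73.8, 104 and 250.2 CPM in young and 369, 183 and 389 CPM in ABT-737-treated skin, with overlap, and did not pass (adjusted p = 0.173 by edgeR). The summed level of the list was 1382, 1589 and 2386 CPM in young, 4484, 7033 and 8238 CPM in vehicle-treated and 3136, 2724 and 3906 CPM in ABT-737-treated skin. The treated libraries thus lay above all young and below all vehicle-treated ones. The summed level of blood genes was 576, 630.1 and 578 CPM in young, 4982, 15026 and 1488 CPM in vehicle-treated and 1142, 408 and 939 CPM in ABT-737-treated skin, and its part in the immune results was not tested. The median of the macrophage list was 2.74 for vehicle-treated over young skin, where 34 of the 39 genes were called higher, beside 5.84% of all genes. It was -1.28 for ABT-737-treated over vehicle-treated skin, where 0 genes were called. The list had 0 calls against young skin without young replicate 1 or 2 or ABT-737 replicate 5, and 1 without young replicate 3 or ABT-737 replicate 4. It had 4 or 5 without vehicle replicate 4 or 5, fits that called 254 of 14644 and 431 of 14583 genes higher. It had 4 when ABT-737 replicate 3 was left out, a fit that called 1478 of 14640 genes higher.

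Other immune lists had the same order of medians. The 10 genes of MHC class II antigen presentation, with which immune cells display peptides to helper T cells, had a median of 1.16 and 0 calls, beside 2.06 and 10 calls for vehicle-treated over young skin. H2-Aa had 155, 269 and 486 CPM in young, 1843, 1860.3 and 1363 CPM in vehicle-treated and 1097, 419 and 1139 CPM in ABT-737-treated skin, in which replicate 4 fell within the young range (adjusted p = 0.078 by edgeR, ABT-737-treated against young). The 44 interferon-stimulated genes had a median of 0.58 and 0 calls, beside 2.28 and 24 calls for vehicle-treated skin. The 16 T cell genes had a median of 0.93 and 0 calls, beside 1.91 and 10 calls. Over all genes, 5.84% were called higher for vehicle-treated and 2% for ABT-737-treated over young skin. Both comparisons share the young libraries, and the direct test between the old groups called 0 genes.

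Of 22 chemokine genes tested, 2 were called higher, Cxcl12 and Cxcl14, beside 2% of all genes, and the median was 1.19. Cxcl12, which retains leukocytes and stem cells through CXCR4, had 34, 45.5 and 43.2 CPM in young and 137, 70.5 and 145 CPM in ABT-737-treated skin (1.52 ± 0.36, adjusted p = 0.0464 by edgeR). Cxcl14, a chemokine made by epidermis, had 257, 266 and 213 CPM and 335, 694 and 588 CPM (1.13 ± 0.27, adjusted p = 0.0454 by edgeR). Ccl5, which draws T cells and monocytes, had 1.45, 1.73 and 2.27 CPM in young, 24.6, 29.9 and 173 CPM in vehicle-treated and 5.19, 3.13 and 9.75 CPM in ABT-737-treated skin, and did not pass against young skin (adjusted p = 0.288 by edgeR). C2, a component of the classical complement pathway, had 16.6, 10.4 and 11.8 CPM in young and 39.4, 20 and 45.7 CPM in ABT-737-treated skin (1.45 ± 0.33, adjusted p = 0.0403 by edgeR), and it overlaps another tested gene on its own strand.

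Senescence genes were examined because ABT-737 was given to remove senescent cells. Senescent cells arrest through inhibitors of cyclin-dependent kinases and release a set of factors known as the senescence-associated secretory phenotype (SASP). Of 20 regulators tested, 1 was called higher, beside 2% of all genes, and 0 lower. This gene, Cdkn2b, which encodes the inhibitor p15, had 8.68, 6.33 and 11.4 CPM in young, 21.5, 24.9 and 30.9 CPM in vehicle-treated and 19.5, 25.9 and 28.3 CPM in ABT-737-treated skin (log2 fold change 1.46 ± 0.29 (SE) against young skin, adjusted p = 0.03 by edgeR). The treated libraries overlapped those given vehicle and lay above all young ones. Cdkn1a, which encodes p21, had 344, 372 and 440.3 CPM in young and 449, 922 and 916 CPM in ABT-737-treated skin, without overlap, and did not pass (0.98 ± 0.29, adjusted p = 0.0741 by edgeR).

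Cdkn2a, which encodes p16, was too low to pass the filter. It had 1, 0 and 0 counts in young skin, 11, 8 and 24 in vehicle-treated skin and 2, 1 and 3 in ABT-737-treated skin, so the treated libraries lay near young skin and below every vehicle-treated one. Without the filter its log2 fold change against vehicle-treated skin was -2.88 ± 0.75 (SE, adjusted p = 0.13 by edgeR). Against the single count of all young skin it was 1.49 ± 1.25 in ABT-737-treated skin (adjusted p = 0.561 by edgeR) and 4.37 ± 1.01 in vehicle-treated skin (adjusted p = 0.00835 by edgeR), fitted values that depend on the prior count.

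Of 44 SASP genes tested, 5 were called higher, beside 2% of all genes, and 0 lower. The median was 0.91, beside 1.64 and 14 calls for vehicle-treated over young skin, where 5.84% of all genes were called higher. The 5 were Cxcl12, the IGF-binding proteins Igfbp4 (1.33 ± 0.31) and Igfbp7 (1.43 ± 0.34), the lysosomal protease cathepsin B (Ctsb) and the decoy receptor osteoprotegerin (Tnfrsf11b, 2.31 ± 0.54). Tnfrsf11b was called on few counts, 2, 2 and 2 in young and 24, 9 and 25 in ABT-737-treated skin. Ctsb had 312, 356 and 423 CPM in young and 597, 1099 and 1203 CPM in ABT-737-treated skin (1.41 ± 0.30, adjusted p = 0.035 by edgeR), and Igfbp7 had 119, 161 and 225 CPM and 412, 404 and 542 CPM. Il6 was at 0 counts in all 9 libraries. The list had 0 calls without any one of the young replicates, without ABT-737 replicate 4 or 5, and among protein-coding genes alone, and 2 or 3 without vehicle replicate 3 or 4.

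The drug's targets did not pass the test. Of 4 anti-apoptotic BCL-2 family genes tested, 0 were called. Bcl2 had 42.7, 32.2 and 37.3 CPM in young and 29.1, 27.8 and 35 CPM in ABT-737-treated skin (-0.28 ± 0.18), and Bcl2l1, which encodes BCL-XL, had 74.5, 86.3 and 87.8 CPM and 74.2, 113 and 104 CPM (0.23 ± 0.21). Bcl2l2, which encodes BCL-W, had a log2 fold change of 0.01 ± 0.26, and Mcl1, whose product ABT-737 binds poorly, had -0.26 ± 0.23. The groups overlapped in all 4 genes. Of 14 pro-apoptotic family genes, Bnip3l, a mitophagy receptor, was called higher, at 26, 23.6 and 22.3 CPM in young and 42.6, 52.9 and 60.9 CPM in ABT-737-treated skin (1.12 ± 0.26, adjusted p = 0.0425 by edgeR). The share over all genes was 2%.

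Genes of fat metabolism and of the oil-producing sebaceous gland included a few called higher, beside 2% of all genes. Cpt1a, which loads fatty acids into mitochondria for oxidation, had 14.5, 9.78 and 13.2 CPM in young and 47, 59.1 and 47.8 CPM in ABT-737-treated skin (log2 fold change 2.04 ± 0.27 (SE), adjusted p = 0.0119 by edgeR). Of 35 genes of fatty acid and sterol synthesis, 2 were called higher, Acly (1.17 ± 0.26), which makes cytosolic acetyl-CoA, and Fads1 (1.45 ± 0.28), a desaturase that overlaps Fen1. Of 29 sebaceous gland genes, 3 were called higher, Mgst1 (1.20 ± 0.25), Acox2 (2.79 ± 0.66) and Prdm1. Acox2 was called on few counts, 1, 1 and 2 in young and 23, 9 and 22 in ABT-737-treated skin. Outside these lists, G6pdx, the entry enzyme of the pentose phosphate pathway that supplies NADPH, had 30.4, 42 and 44.6 CPM in young and 79.9, 273 and 234 CPM in ABT-737-treated skin (2.32 ± 0.42, adjusted p = 0.0266 by edgeR), and it overlaps Ikbkg. The phospholipase Pla2g2e had 1.45, 1.73 and 2.27 CPM and 9.08, 93.2 and 86.5 CPM (5.04 ± 0.99, adjusted p = 0.03 by edgeR).

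Few matrix genes passed the test. Of 8 fibrillar collagen genes tested 0 were called, and Col1a1 had 816, 3143 and 4528 CPM in young and 5564, 1699.6 and 4322 CPM in ABT-737-treated skin, with overlap (adjusted p = 0.654 by edgeR). Of 18 other collagens, Col8a2 (-1.73 ± 0.40) and Col23a1 (-1.57 ± 0.32) were called lower, beside 3.17% of all genes. Of 45 elastic fibre, proteoglycan and glycoprotein genes, 3 were called higher, beside 2% of all genes. They were Fbln5 (2.19 ± 0.49), an organiser of elastic fibres, Thbs1 (2.46 ± 0.57), a thrombospondin, and Lamb1 (1.56 ± 0.37), a laminin chain. Fbln5 had 0.724, 5.18 and 7.28 CPM in young and 17.1, 21.9 and 25.3 CPM in ABT-737-treated skin.

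Genes that mark position along the body were called in both directions. Of 26 Hox and related genes, Hoxb3 (2.21 ± 0.41) and En1 (2.25 ± 0.52), a marker of ventral limb and dorsal dermal lineages, were called higher, and Hoxa9 (-2.32 ± 0.49) and Hoxd4 (-1.26 ± 0.28) lower. Over all genes 2% were called higher and 3.17% lower. Hoxa9 had 31.8, 10.9 and 14.1 CPM in young and 5.19, 2.35 and 3.35 CPM in ABT-737-treated skin, without overlap. The site from which each piece of skin was cut is not given in the sources used here, and its part in the other results was not tested.

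Among genes of large change in ABT-737-treated skin, the treated libraries were often uneven. Nnat, an imprinted gene of fat and brain, had 0.724, 0 and 2.27 CPM in young, 1.32, 5.69 and 0.828 CPM in vehicle-treated and 142, 25.1 and 14.3 CPM in ABT-737-treated skin (log2 fold change 5.73 ± 1.23 (SE) against young, adjusted p = 0.036 by edgeR). Its highest value was in replicate 3, the library with the highest summed adipocyte level (10322, 3101 and 3012 CPM in ABT-737-treated and 7725, 6109 and 7354 CPM in young skin), and Nnat lies across Blcap. The carboxypeptidase gene Cpm had 5.79, 6.33 and 10.9 CPM and 19.5, 288 and 269.7 CPM (4.61 ± 0.98), the amino acid transporter Slc7a8 had 1.45, 2.3 and 0.91 CPM and 4.67, 119 and 70.4 CPM (5.36 ± 1.21), and the carbonic anhydrase gene Car6 had 3.62, 2.3 and 3.64 CPM and 4.41, 132 and 254 CPM (5.33 ± 1.26). In each of these 3 genes replicates 4 and 5 lay far above replicate 3, as the hair genes did. In contrast, Pianp and Cyfip2 had ABT-737-treated libraries close to each other. Pianp, a ligand of the receptor PILRA, had 2.17, 1.73 and 3.64 CPM in young and 18.4, 14.9 and 19.8 CPM in ABT-737-treated skin (2.75 ± 0.32, adjusted p = 0.00745 by edgeR), and Cyfip2, a subunit of the WAVE complex of actin assembly, had 3.62, 6.33 and 6.37 CPM and 27.8, 22.3 and 27.1 CPM (2.21 ± 0.27, adjusted p = 0.0114 by edgeR).

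Early response genes Egr2 (1.70 ± 0.31) and Egr3 (1.98 ± 0.39), transcription factors induced within minutes by growth signals, were called higher, 2 of 27 in their list, and the chaperone genes Dnaja1 (1.41 ± 0.30) and Pdia6 (0.74 ± 0.18) were 2 of 30 in theirs. The share of all genes called higher was 2%. The aspartic protease gene Napsa, expressed in lung and kidney, had 1.45, 2.88 and 6.82 CPM in young, 18.5, 27.4 and 31.2 CPM in vehicle-treated and 30.4, 9.4 and 21.3 CPM in ABT-737-treated skin (2.36 ± 0.56 against young, adjusted p = 0.0449 by edgeR). It was lowest of the treated libraries in replicate 4, the one with surfactant counts. Scgb1a1, another gene of the lung list, was highest there, with 31, 124 and 12 counts in the treated libraries. The part of lung RNA in these values was not tested. Hopx, of the same lung list and also expressed in epidermis and follicles, had 122, 136 and 131 CPM in young and 175, 320.0 and 293 CPM in ABT-737-treated skin and did not pass (adjusted p = 0.0513 by edgeR).

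**Figure D5:**
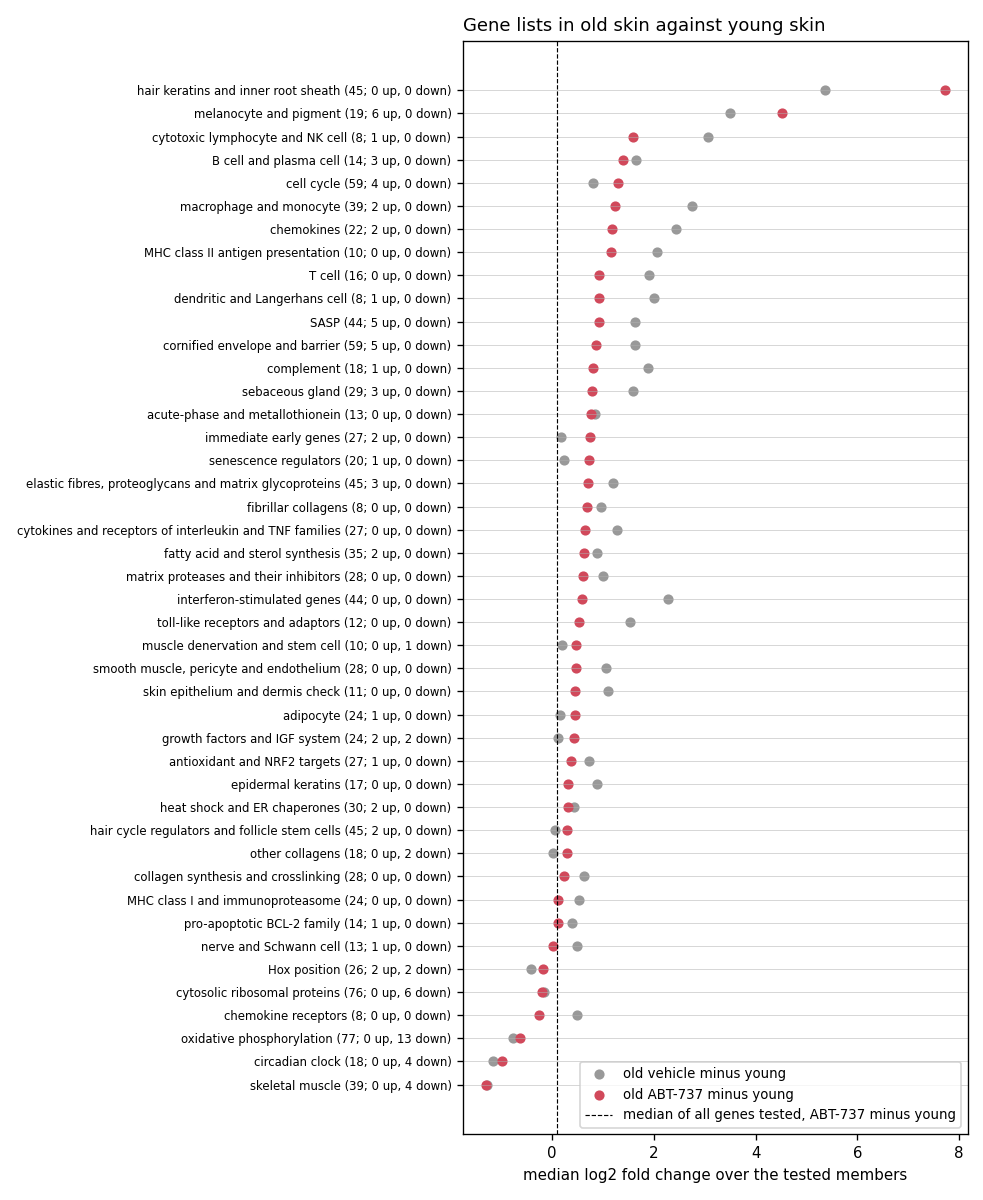
Median log2 fold change over the tested members of each gene list (horizontal axis), with red points for old ABT-737-treated minus young and grey points for old vehicle-treated minus young, which share the young libraries. Each row gives the number of genes tested and the numbers called higher (up) and lower (down) for ABT-737-treated against young skin. The dashed line is the median of all genes tested, lists with fewer than 8 tested genes and the liver and blood lists are not drawn, and of those drawn the skeletal muscle, clock and oxidative phosphorylation lists lie furthest to its left.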

How the data were processed

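RNA was taken from skin kept in RNAlater after perfusion of the mice, and 3′ end libraries were made by a bulk form of MARS-seq, in which samples are barcoded and pooled before amplification. The authors deposited raw read counts per gene in mm10 coordinates, and the submitters' processing notes name bcl2fastq, HISAT 0.1.5, HOMER and mm10 without their settings. Whether molecule barcodes were collapsed and whether strand was used in counting is not given in the sources used here, so amplified copies may be counted more than once. The labels do not tie each library to an animal, and p-values measure the spread between these libraries. Intervals cover counting error only.

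From the deposited counts of 9 skin libraries (young, vehicle and ABT-737, 3 each), 14224 of 52508 genes passed edgeR's filterByExpr and were fitted together in R 4.3.3 with edgeR 4.0.16 (trimmed mean of M values, glmQLFit and glmQLFTest, with 3 groups and no covariate). P-values were adjusted by Benjamini-Hochberg over all genes tested, with a threshold of 0.05. The SE of a log2 fold change was computed as its size divided by the square root of the quasi-likelihood F. DESeq2 1.42.0, other scalings and filters, and fits without each library were alternatives. Scripts were tested on simulated data in which a small set of genes was changed in the ABT-737-treated group. The same fit called 1.01% of the 2-fold and 45.9% of the 4-fold changes, and 6.12% of its calls were false. A gene that did not pass can therefore still differ. Gene classes came from GENCODE vM21 by transcript identifier, and promoters from RefSeq (GRCm38.p6).

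The 52 gene lists and the comparison itself were chosen with earlier results of these data known. Genes were named by a rule: the 10 highest and 10 lowest called genes, the 5 called genes of smallest p in each direction, up to 4 called members of each list in each direction or else its 2 most abundant, the drug's targets, senescence inhibitors, Prf1 and the lung list. Acta1, Arntl, Cry1, Per1, Dct, Pmel, Lor, Lyz2, Rab38, Myo5a, Rplp1, Sdc1, the further ribosomal and mitochondrial members and the genes called by DESeq2 between old groups were named after their values were seen. Of the lists without their own account, some had 1 gene called higher, beside 2% of all genes. They were dendritic cells (Cd209a, of 8 tested), cytotoxic lymphocytes (Prdm1, of 8), mast cells (Kit, of 6), nerve (Egr2, of 13) and adipocytes (Nnat, of 24). The others were kidney tubule (Napsa, the 1 tested), lung (Napsa, of 7), complement (C2, of 18) and antioxidant genes (G6pdx, of 27). Muscle denervation had 1 of 10 called lower (Chrna1), beside 3.17% of all genes. Of 24 growth factor genes, 2 were called higher (Igfbp4 and Igfbp7) and 2 lower (H19 and Pdgfb). The table of kidney, liver and lung libraries was not used.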

Additional observations from a re-analysis of the deposited data

Results flagged for a closer look

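Some genes of lung and kidney that did not pass the filter had their highest count in an ABT-737-treated skin library. The genes given here were picked for that, and other genes of the same lists differed. Aqp2, a kidney gene, had 21 counts in vehicle replicate 5 and 5, 0 and 0 in the treated libraries. Slc12a1, another, had 2, 0 and 1 counts in young, 0, 0 and 2 in vehicle-treated and 1, 1 and 2 in treated libraries. In ABT-737 replicate 4 the lung surfactant genes Sftpc, Sftpb, Sftpa1 and Sftpd had 176, 50, 44 and 13 counts, and the highest count in a young or vehicle-treated library was 4 for Sftpc, 0 for Sftpb, 1 for Sftpa1 and 0 for Sftpd. Ager, of the alveolar wall, had 28 counts in the same library and at most 9 in a vehicle-treated and 3 in a young one. Of the kidney tubule genes, Umod had 30, 6 and 15 counts in ABT-737 replicates 3, 4 and 5 and 0 in all young and vehicle-treated libraries. In the same order Slc34a1 had 2, 2 and 24 counts and Miox 4, 4 and 12, each beside at most 1 in young and vehicle-treated libraries. Slc12a3 had 4, 2 and 6 counts and 0 in the other libraries. In raw counts these named kidney genes were thus above young and vehicle-treated skin in all 3 treated libraries. The counts are not scaled by library total, and every treated library was deeper than every young one. For Slc34a1 the 2 counts in ABT-737 replicate 3 came from a total of 3842808, and the 1 count in young replicate 2 from 1776063, so that order does not hold after scaling.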

How the results depend on the processing

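With no filter beyond 1 count, 973 genes were called higher and 694 lower against young skin and 32 between the old groups. DESeq2 called 910, 1033 and 59. Protein-coding genes alone, an alternative chosen after the data were seen, gave 36 higher, 101 lower and 0 between the old groups, with fewer genes tested by construction. Leaving out a library in turn gave 0 to 1478 higher and 2 to 1397 lower genes, with the lowest without young replicate 1 or ABT-737 replicate 5 and the highest without ABT-737 replicate 3, in which a group is reduced to 2 libraries. The cause of these shifts was not tested. Scaling by DESeq2 size factors (243 and 524), by total counts (373 and 394), a filter of 10 counts in every library (322 and 435), a fit of the 6 compared libraries (392 and 604) and a fold limit (242 and 398) stayed within 1.5 times the counts reported, and all genes called kept their direction in each alternative that tested them. The all-gene median was 0.05 with DESeq2 size factors and 0.18 with total counts. List medians changed sign in at least 1 alternative for liver, anti-apoptotic BCL-2, chemokine receptors, muscle denervation, nerve, other collagens, hair cycle regulators and toll-like receptors, and without ABT-737 replicate 3 for MHC class I, adipocyte, collagen synthesis and growth factors. For single genes and lists together, 1071 values stayed the same, 443 became weaker, 329 moved and 0 reversed. A gene stayed the same if it kept its direction and its call, and only genes could become weaker or reverse. A list stayed the same if its number of calls was within 1.5 times that reported, and otherwise it moved.

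No paired analysis was possible because ABT-737-treated and young libraries share a single replicate number. Between ABT-737-treated and vehicle-treated skin, a replicate block gave 0 calls, with 598 genes at an unadjusted p under 0.05, and same-numbered libraries did not deviate together (correlations of -0.574, -0.577 and 0.276), so the numbers were not taken as pairs. BCV was 34.9%, and the shallowest young library, with 1493411 counts, limits what low genes such as Cdkn2a can show.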
